A study of Arabidopsis thaliana with 48 samples.

Results

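The comparison described here is the response of salt-grown wild-type Arabidopsis thaliana (Columbia, Col-0) seedlings to a short pulse of high light. Its members are 6 of the 48 libraries of the study, chosen by treatment label: 3 libraries of salt with high light (S+HL) and 3 libraries of salt alone (S). S+HL seedlings had germinated and grown on medium containing 50 mM salt and were exposed at the age of 7 days to a light intensity of 700 µE for 1.5 h. S seedlings grew on the same salt medium and stayed at 150 µE. Both groups were raised at 21 °C, and neither label names a heat treatment, so salt is common to both and the light intensity is the labelled difference. The air or leaf temperature during the exposure is not given in the sources used here. A pair of side comparisons share no library with this one. High light without salt (HL, 700 µE for 1.5 h) was set against Control (150 µE) in Col-0, with no salt in either group, and S+HL was set against S in a mutant of the bHLH35 gene (AT5G57150), with 3 libraries in each of these groups. RNA came from whole seedlings, and the labels do not say whether replicates came from separate cultures. The p-values therefore measure a spread between libraries that may be technical, pooled for each gene over all treatment groups fitted together.

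Leaves that receive more light than photosynthesis can use protect themselves in several ways. They make early light-induced proteins and carotenoids that dispose of excess excitation, raise ascorbate-based enzymes that remove hydrogen peroxide, deposit flavonoids and anthocyanins as a screen, and shrink the light harvesting antenna of chlorophyll-binding proteins. Strong light also induces heat shock proteins, chaperones that hold damaged proteins in a foldable state, and genes of abscisic acid, the hormone that closes stomata and switches on osmotic protection in dry or saline conditions. Salt in the medium is itself an osmotic and ionic stress.

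Levels are given in FPKM, a fragment count scaled by transcript length and library size, as deposited. Tests used limma on log2(FPKM + 1) with Benjamini-Hochberg adjustment over all genes, so a log2 change understates the change of a gene with low FPKM. The estimated depth was 21.03 to 27.9 M fragments (M, mega) in S+HL libraries and 23.3 to 43.97 M in S libraries. Correlations of log2 values over all tested genes were 0.971 to 0.981 among S+HL libraries and 0.975 to 0.979 among S libraries. S+HL replicate 1 stood nearer to the S libraries (0.960 to 0.968) than S+HL replicates 2 and 3 did (0.942 to 0.951). AT5G57150 itself, which was not manipulated in Col-0, had 43.4, 53.9 and 57.5 FPKM in S+HL and 42.5, 35.5 and 29.6 FPKM in S. Every S+HL library stood above every S library, by a log2 change of 0.52 (SE 0.13, adjusted p 0.013). In the mutant it stood at 4.21, 6.10 and 4.02 FPKM in S+HL and 3.39, 4.69 and 3.81 FPKM in S, which checks the genotype label.

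Of 20744 genes tested, 2477 passed an adjusted p of 0.05, which is 11.9%: 1403 were higher in S+HL (6.76%) and 1074 were lower (5.18%). The larger changes leaned upward, since 529 genes rose and 144 fell by a log2 change of at least 1. The median change of all tested genes was -0.015. S+HL replicate 1 was the lowest of the 3 S+HL libraries in 945 of the 1403 higher genes (67.4%) and the highest in 786 of the 1074 lower genes (73.2%). The number of called genes was 1310 without S+HL replicate 2, 1554 without S replicate 3, 1566 without S+HL replicate 3 and 1614 without S replicate 2, while it was 2567 without S+HL replicate 1.

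**Figure D1:**
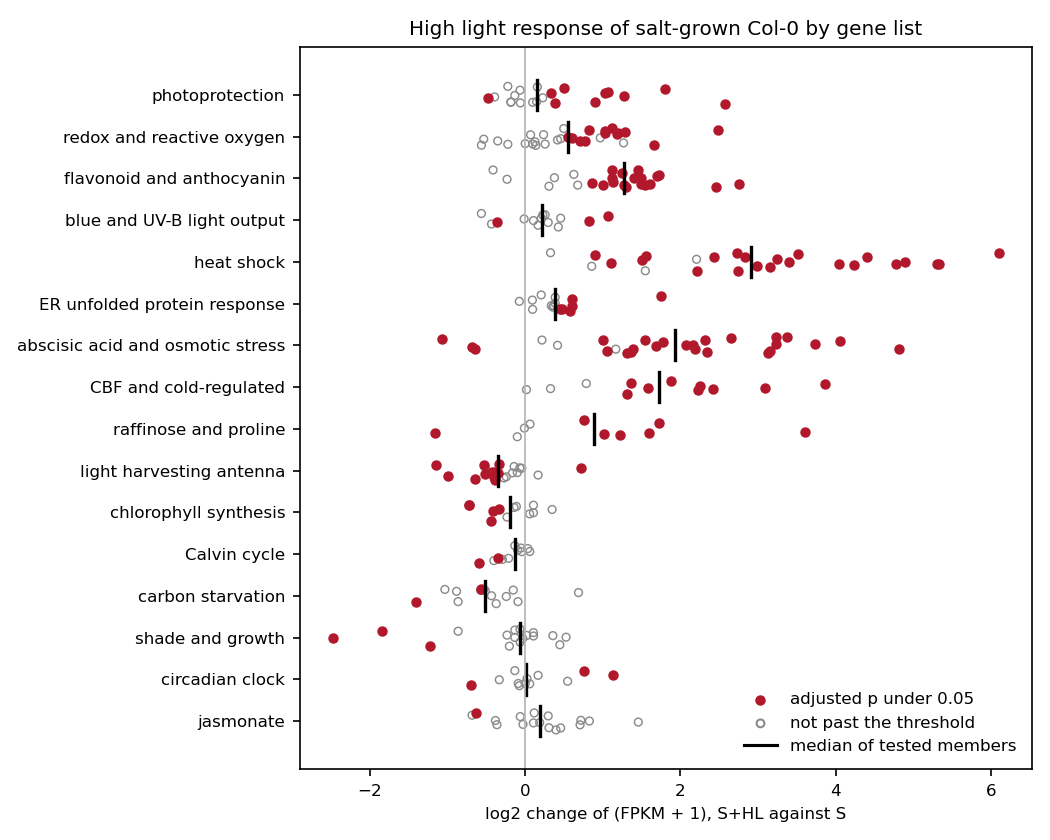
Change of each tested member of 16 gene lists in salt-grown Col-0 (x axis, log2 change of FPKM + 1, S+HL against S), with filled points for adjusted p under 0.05, open points for the rest and a black bar at each list's median. Heat shock (median 2.91), abscisic acid (1.93) and cold-regulated genes (1.73) lie farthest to the right, and the antenna (-0.34) and carbon starvation (-0.52) lists lie to the left.

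Transcripts of photoprotection genes changed unevenly, with a few large rises, some smaller ones and others that did not pass. Of 21 photoprotection genes tested, 9 rose (42.9%) and 1 fell (4.76%), against 6.76% and 5.18% of all tested genes. The median log2 change was 0.16 against -0.015 for all genes. ELIP1, an early light-induced protein of the thylakoid that binds pigments during light stress, changed most. It stood at 196, 295 and 353 FPKM in S+HL and at 50.4, 47.4 and 38.8 FPKM in S. The groups were far apart, with a log2 change of 2.57 (SE 0.24, adjusted p 1.3e-06). Its relative ELIP2 had 190, 209 and 153 FPKM in S+HL and 56.8, 43.2 and 54.9 FPKM in S (log2 change 1.81, SE 0.31, adjusted p 0.00041). How reads shared by such close relatives were divided is not given in the sources used here, so single members of gene families are less certain than their families.

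The promoter of ELIP1 is shown because it is the gene of this list with the largest rise, and it carries a G-box, the CACGTG element bound by many light and abscisic acid regulators. The window covers the 250 bases before the annotated RefSeq start in TAIR10.1 (chr3:8085670-8085919, minus strand), and capitals mark the motif.
ELIP1: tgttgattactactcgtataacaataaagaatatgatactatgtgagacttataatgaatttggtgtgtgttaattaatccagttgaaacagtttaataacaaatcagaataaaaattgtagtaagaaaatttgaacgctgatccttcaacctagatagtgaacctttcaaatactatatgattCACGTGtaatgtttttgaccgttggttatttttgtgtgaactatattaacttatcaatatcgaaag

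Carotenoid and tocopherol enzymes and thylakoid proteases made up most of the other rises. BCH2, a beta-carotene hydroxylase on the way to the xanthophylls, had 56.1, 85.6 and 68.7 FPKM in S+HL and 28.6, 25.2 and 29.9 FPKM in S (log2 change 1.28, SE 0.15, adjusted p 7.2e-06). VTE1, the tocopherol cyclase, rose by 1.03 and SIG5, a nuclear-encoded sigma factor of the plastid RNA polymerase, by 1.07 on the log2 scale. All 3 of these genes had no overlap between the groups. Subunits of the FtsH protease, which removes damaged photosystem II reaction centre protein, changed less: FTSH8 rose by 0.90, FTSH1 by 0.39 and FTSH5 by 0.33, while FTSH2, at 617 to 671 FPKM in S+HL and 526 to 628 FPKM in S, did not pass the test (0.16, adjusted p 0.27). PSBS, the sensor protein of energy-dependent quenching, stood at 1560, 1620 and 1620 FPKM in S+HL and at 1340, 1500 and 1500 FPKM in S, which did not pass either (0.15, adjusted p 0.43). The one gene that fell was LIL3:1, a light-harvesting-like protein of chlorophyll synthesis (log2 change -0.48).

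Genes that handle reactive oxygen rose in 13 of 29 tested cases and none fell, with a median of 0.56. APX1, the cytosolic ascorbate peroxidase, was already abundant and went up in every library: 1390, 1850 and 1870 FPKM in S+HL and 758, 777 and 677 FPKM in S (log2 change 1.2, SE 0.13, adjusted p 5.3e-06). APX2, its inducible relative, showed how unevenly the S+HL libraries had responded. It stood at 0.325, 8.67 and 18.8 FPKM in S+HL and at 0.0871, 0 and 0.311 FPKM in S. Replicate 1 of S+HL lay just above the S libraries, and the other two lay far above them (log2 change 2.49, SE 0.69, adjusted p 0.022). FER1, a plastid ferritin that stores iron, had 417, 684 and 626 FPKM in S+HL and 143, 206 and 188 FPKM in S, a log2 change of 1.66. The alternative oxidase AOX1A (1.29), the mitochondrial NDB2 dehydrogenase (1.19), catalase CAT2 (0.71), glutathione reductase GR1 (0.82) and the ascorbate synthesis gene VTC2 (0.61) rose as well. The superoxide dismutases CSD1 (0.0037), CSD2 (-0.53) and FSD1 (0.26) did not pass the test, nor did OXI1 (0.24) and BAP1 (-0.56), which respond to singlet oxygen signalling. This list had 8 called members without S replicate 2 or without S+HL replicate 2.

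Flavonoid and anthocyanin synthesis rose as a pathway, from its entry to its last steps. Of 25 genes, 19 rose and none fell, and the median log2 change was 1.27. Among the early enzymes, CHS, chalcone synthase, had 698, 740 and 784 FPKM in S+HL and 382, 323 and 240 FPKM in S (log2 change 1.25, SE 0.26, adjusted p 0.0024). F3H, flavanone 3-hydroxylase, had 222, 219 and 211 FPKM in S+HL and 94.4, 68.7 and 44.5 FPKM in S, a log2 change of 1.70. The S+HL libraries were nearly level for F3H, and the spread lay among the S libraries. The flavonol branch rose with it (FLS1 by 1.50 and the sugar transferase UGT78D1 by 1.01), as did the anthocyanin branch. DFR, the first enzyme committed to anthocyanins, had 48.3, 74.6 and 88.1 FPKM in S+HL and 24.8, 25.1 and 12.5 FPKM in S, with a log2 change of 1.73 (SE 0.29, adjusted p 0.00043).

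The regulators of that branch showed the list's largest changes. MYB75 and MYB90 are the paired R2R3-MYB activators of anthocyanin genes. MYB90 had 5.84, 10 and 10 FPKM in S+HL and 1.08, 0.307 and 0 FPKM in S, and MYB75 had 25.9, 35.8 and 31.1 FPKM in S+HL and 6.44, 6.68 and 2.32 FPKM in S. Their log2 changes were 2.76 (SE 0.40, adjusted p 9.6e-05) and 2.46 (SE 0.41, adjusted p 0.00037). The bHLH partner TT8 rose by 1.61, while EGL3 (0.38), the WD40 protein TTG1 (-0.23) and the repressor MYBL2 (-0.41) did not pass. Of the flavonol activators, MYB12 rose by 1.14, and MYB11 (0.63) and MYB111 (0.68) did not pass. Neither MYB90 nor the anthocyanin enzymes DFR, LDOX and GSTF12 passed the test for high light without salt, with log2 changes there of 0.70, 0.84, 0.66 and 0.93, but the difference of the responses passed for none of the 4 genes (adjusted p 0.19, 0.62, 0.72 and 0.91).

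The MYB90 promoter is given as that of the gene with the largest rise in the flavonoid list (chr1:24763691-24763940, plus strand, TAIR10.1, RefSeq), with its G-box in capitals.
MYB90: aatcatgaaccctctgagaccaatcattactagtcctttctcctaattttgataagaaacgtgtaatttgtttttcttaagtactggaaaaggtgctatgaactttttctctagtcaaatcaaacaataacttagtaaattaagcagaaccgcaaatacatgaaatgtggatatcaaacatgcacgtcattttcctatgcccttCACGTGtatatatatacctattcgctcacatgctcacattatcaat
Among the 19 flavonoid genes that rose, 6 held a G-box in this 250-base window (31.6%), against 7.35% of the 20604 promoters of all tested genes.

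Light signalling genes upstream of that pathway moved little after 1.5 h. HY5, the bZIP factor that promotes photomorphogenesis and flavonoid genes, had 48.3, 40.9 and 45.6 FPKM in S+HL and 30.1, 23.7 and 21.9 FPKM in S (log2 change 0.82, SE 0.21, adjusted p 0.013). HY5 and SIG5 were the 2 genes that rose among 14 of blue and UV-B light output (14.3%), and 1 fell (7.14%), the photoreceptor CRY1 (-0.36). Over all tested genes 6.76% rose and 5.18% fell, so counts this small describe single genes and not the list. HYH (0.30), RUP1 (0.11), RUP2 (0.43), UVR8 (0.17) and COP1 (-0.01) did not pass.

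Heat shock genes had the highest median of the lists tested, with no heat treatment in the label of either group. Of 26 genes, 22 rose and none fell, with a median log2 change of 2.91, and 7 of the 15 largest called rises among genes with a mean of at least 5 FPKM in S+HL and no overlap between the groups were members of this list. HSP17.6II, a class II small heat shock protein of the cytosol, changed most. It had 16.5, 310 and 696 FPKM in S+HL and 1.98, 0.523 and 1.61 FPKM in S. Its log2 change was 6.10 (SE 0.86, adjusted p 6.6e-05), with the libraries of S+HL themselves spread over a wide range. The SD was 341 FPKM in S+HL and 0.758 FPKM in S. As for every gene, the spread was pooled over the 8 groups of the fit, and HL against Control had the same SE of 0.86. The SE and p-value of such a gene do not show the wider spread within S+HL. The same pattern was seen in HSP17.4, with 12.2, 298 and 673 FPKM in S+HL and 4.22, 1.26 and 2.61 FPKM in S (log2 change 5.31, SE 0.91), and in the mitochondrial HSP23.6-MITO, with 3.57, 69.5 and 199 FPKM in S+HL and 0.149, 0.287 and 0.685 FPKM in S (4.89, SE 0.90). HSP21, a plastid small heat shock protein, was listed at 0 in all 3 S libraries and had 0.104, 10 and 24 FPKM in S+HL.

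The transcription factors and the large chaperones followed at smaller size. HSFA2, the heat shock factor that sustains the response and also responds to hydrogen peroxide and strong light, had 16.3, 39.5 and 68.1 FPKM in S+HL and 0.692, 0.493 and 1.84 FPKM in S (log2 change 4.24, SE 0.48, adjusted p 7.2e-06). HSFB2A (1.51), HSFB2B (1.56) and HSFB1 (0.90) rose too, whereas HSFA3 (0.33, adjusted p 0.20) and HSFA7A (0.86, adjusted p 0.058) did not pass. HSP70 had 317, 541 and 1010 FPKM in S+HL and 49.5, 42.5 and 52.0 FPKM in S, with a log2 change of 3.51. HSP101, the disaggregase needed for thermotolerance, rose by 2.83, HSP90.1 by 3.16, the co-chaperone ROF2 by 4.05, the coactivator MBF1C by 3.24 and the plastid disaggregase CLPB3 by 1.11. HSP18.2 (2.21, adjusted p 0.13) and Hsp70b (1.55, adjusted p 0.098) did not pass, and for both the S+HL replicate 1 value lay within the range of the S values.

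In all 22 heat shock genes that rose, replicate 1 was the lowest S+HL library. The list mean on the log2(FPKM + 1) scale was 4.09, 6.01 and 6.96 in the S+HL libraries and 2.66, 2.59 and 2.76 in the S libraries, so replicate 1 lay between the groups and closer to S. Without S+HL replicate 1, 25 of the 26 genes were called, and without S+HL replicate 2 or 3, 18 were. In the HL libraries without salt the list means were 5.06, 6.04 and 7.53, against 2.58, 2.47 and 2.44 in Control, and 25 genes rose there (10% of all tested genes did, and 7.7% fell), so a wide spread among high light libraries was seen without salt too. The list means rose from replicate 1 to replicate 3 in both S+HL and HL. HSP17.6II had the same order in the mutant S+HL libraries, at 56.3, 372 and 1180 FPKM. What the replicate number shares between these groups was not tested.

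**Figure D2:**
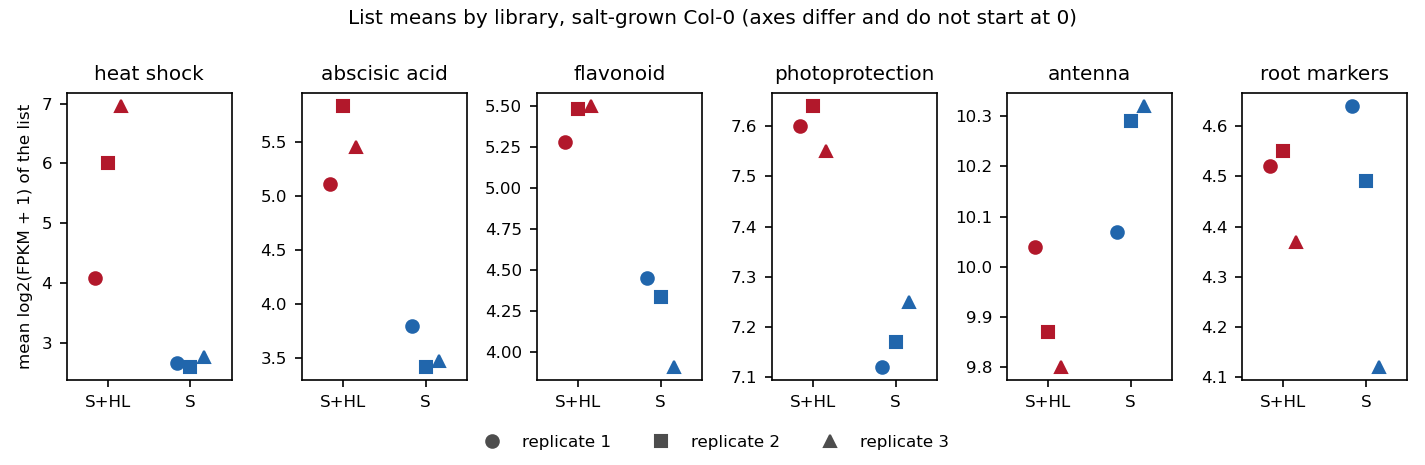
Mean log2(FPKM + 1) over the tested members of 6 lists in each library, S+HL left and S right, with a marker for each replicate number. S+HL replicate 1 (circle) lies low in the heat shock (4.09), abscisic acid (5.11) and flavonoid (5.28) panels and high in the antenna panel (10.04), where it reaches the S replicate 1 level (10.07), while the root markers overlap between groups.

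The promoters of HSP17.6II, the largest rise of the list, and of HSP17.4, which had the most matches to a heat shock element in this list and was picked after its values were seen, are set side by side because the genes responded alike and their windows differ. The heat shock element was searched on both strands as GAANNTTC. After the data were seen, the form TTCNNGAA was added, and the forms can overlap. Windows are the 250 bases before the RefSeq start in TAIR10.1 (chr5:3883112-3883361, minus strand, and chr3:16984868-16985117, minus strand), with matches to these forms, to the G-box and to the abscisic acid and dehydration elements spelled out further on in capitals.
HSP17.6II: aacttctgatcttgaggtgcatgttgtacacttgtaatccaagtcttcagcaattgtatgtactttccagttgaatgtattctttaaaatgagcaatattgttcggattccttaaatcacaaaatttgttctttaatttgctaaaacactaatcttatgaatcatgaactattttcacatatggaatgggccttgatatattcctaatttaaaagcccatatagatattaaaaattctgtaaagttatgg
HSP17.4: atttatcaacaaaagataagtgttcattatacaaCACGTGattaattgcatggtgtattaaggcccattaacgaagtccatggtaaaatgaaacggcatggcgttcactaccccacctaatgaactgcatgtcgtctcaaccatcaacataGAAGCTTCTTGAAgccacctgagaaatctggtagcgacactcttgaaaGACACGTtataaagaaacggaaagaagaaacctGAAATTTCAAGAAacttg
The HSP17.4 window held 2 matches to each heat shock form, 1 ABRE and 1 G-box, and in the HSP17.6II window none of these letters were found, which says nothing of the factor. TTCNNGAA was found in 8 of the 22 heat shock genes that rose (36.4%), against 7.68% of all tested genes, and GAANNTTC in 5 of 22 (22.7%), against 9.25%.

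AT3G07365, second in size among the called rises with that mean level and no overlap, at 34.6, 703 and 1690 FPKM in S+HL and 3.17, 9.94 and 10.5 FPKM in S, is annotated as a noncoding transcript antisense to HSP17.4. Whether counting used strand is not given in the sources used here, so its reads cannot be told apart from those of HSP17.4. Small heat shock proteins outside the list rose as well, such as AT1G07400, an HSP20-like chaperone (log2 change 4.95). EGY3, a plastid membrane protein known to respond to heat, rose by 4.2.

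Chaperones of the endoplasmic reticulum responded far less than those of the cytosol. Of 15 genes, 6 rose and none fell, with a median of 0.39. BIP2, the lumenal HSP70, had 112, 134 and 181 FPKM in S+HL and 96.4, 83.7 and 92.8 FPKM in S (log2 change 0.61, SE 0.17, adjusted p 0.019). BIP1 (0.58), the co-chaperones ERDJ3A (1.75) and ERDJ3B (0.48) and the transducers BZIP60 (0.60) and BZIP28 (0.45) were the other rises. The number called was 8 without S+HL replicate 1, and it was 4 without S replicate 1, 3 without S replicate 2, 2 without S replicate 3 or S+HL replicate 2, and 1 without S+HL replicate 3.

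Abscisic acid and osmotic stress genes rose in seedlings that already grew on salt. Of 28 genes, 22 rose and 3 fell, with a median log2 change of 1.93. The synthesis gene NCED3, which cleaves a carotenoid in the rate-limiting step, had 21.0, 41.1 and 22.2 FPKM in S+HL and 2.34, 2.04 and 1.54 FPKM in S. Every S+HL library stood far above every S library, a log2 change of 3.23 (SE 0.33, adjusted p 2.8e-06). The catabolic hydroxylase CYP707A1 rose by 1.0, and CYP707A3 (0.22) did not pass.

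Signalling components moved in both directions, by role. The clade A protein phosphatases, negative regulators that abscisic acid itself induces, rose in all 7 listed cases. HAI1 had 37.7, 105 and 67.8 FPKM in S+HL and 4.40, 2.86 and 1.93 FPKM in S (log2 change 4.06, SE 0.42, adjusted p 2.8e-06). HAI2 (3.23), HAI3 (2.65), ABI2 (2.07), ABI1 (1.78), AHG3 (1.69) and HAB1 (1.32) followed. The 3 genes that fell were the receptors PYL4, PYL5 and PYL6. PYL4 had 57.7, 53.3 and 52.0 FPKM in S+HL and 83.1, 91.2 and 88.6 FPKM in S (log2 change -0.68, SE 0.12, adjusted p 0.00091), and PYL5 (-0.64) and PYL6 (-1.07) changed likewise. The bZIP factors ABF2 (1.06) and ABF3 (1.36) rose, and ABF4 (0.42, adjusted p 0.08) did not pass.

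Effector genes reached the highest levels. RD20, a caleosin of lipid bodies induced by drought and abscisic acid, had 127, 324 and 235 FPKM in S+HL and 12.5, 4.85 and 4.50 FPKM in S (log2 change 4.82, SE 0.39, adjusted p 3.5e-07). RD29B, a hydrophilic protein used as a standard abscisic acid marker, had 64.4, 202 and 161 FPKM in S+HL and 17, 9.13 and 15.9 FPKM in S (3.15, SE 0.41). LEA4-5, a late embryogenesis abundant protein, rose by 3.74, TSPO by 3.38 and RAB18 by 2.19. In each of these genes S+HL replicate 1 was the lowest of its group, as in 20 of the 22 that rose. Yet it lay above every S library, and the list means were 5.11, 5.83 and 5.45 in S+HL and 3.80, 3.42 and 3.48 in S. Without S+HL replicate 1 the list still had 25 called genes.

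The promoters of RD20, the largest rise of this list, and RD29B, which held the most ABRE matches and was picked after its values were seen, follow (chr2:14146556-14146805, minus strand, and chr5:21236771-21237020, plus strand, TAIR10.1, RefSeq). The ABRE, the abscisic acid response element, was searched as ACGTGNC on both strands, and it can overlap with a G-box. The dehydration element was searched as CCGAC. Capitals mark a G-box in RD20, and 3 ABRE matches and 1 dehydration element in RD29B.
RD20: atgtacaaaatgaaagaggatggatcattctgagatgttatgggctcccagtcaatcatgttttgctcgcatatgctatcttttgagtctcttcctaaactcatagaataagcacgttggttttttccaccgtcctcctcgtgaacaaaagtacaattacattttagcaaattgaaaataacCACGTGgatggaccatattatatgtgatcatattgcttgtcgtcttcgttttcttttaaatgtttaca
RD29B: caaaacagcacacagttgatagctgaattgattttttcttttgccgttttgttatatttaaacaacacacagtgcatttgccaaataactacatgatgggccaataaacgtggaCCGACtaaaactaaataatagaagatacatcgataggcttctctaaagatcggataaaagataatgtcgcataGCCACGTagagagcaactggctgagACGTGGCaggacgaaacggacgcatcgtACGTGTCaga
Of the 22 abscisic acid genes that rose, 10 held an ABRE (45.5%), against 9.58% of all tested genes. Across the whole comparison the ABRE was found in 18.6% of the promoters of higher genes and 8.19% of those of lower genes, and the G-box in 15.5% and 4.93%, with 7.35% for all tested genes. GAANNTTC was found in 9.76% of the promoters of higher genes and 7.36% of those of lower genes, and the dehydration element in 16.5% of those of higher genes, against 12.9% of all tested genes. These matches describe the letters in a window and are not bound sites.

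**Figure D3:**
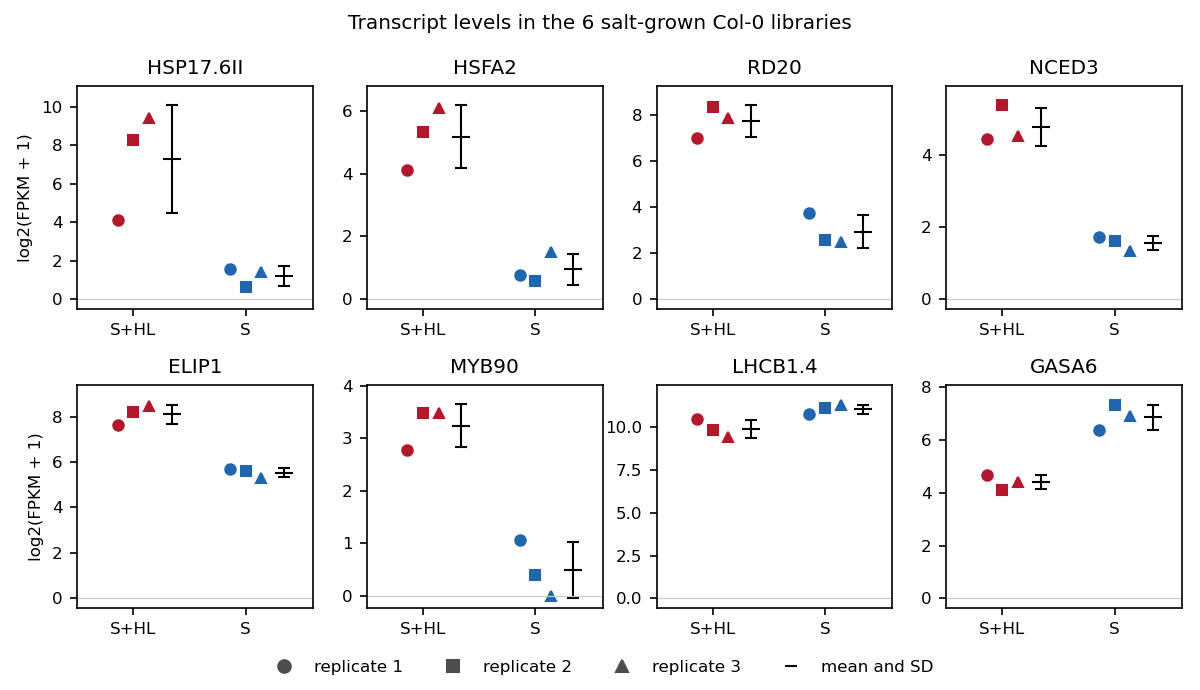
Levels of 8 genes in the 6 libraries (y axis, log2(FPKM + 1)), S+HL left and S right, with mean and SD beside the points. HSP17.6II and HSFA2 are widely spread in S+HL with replicate 1 (circle) lowest, NCED3, ELIP1 and MYB90 are clearly separated from S, and LHCB1.4 and GASA6 are lower in S+HL.

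Cold-regulated genes, whose promoters are bound by CBF factors in the cold and by DREB2A in dehydration and heat, rose with no cold treatment in the labels. Of 12 tested, 9 rose and none fell, with a median of 1.73. COR15A, a chloroplast stroma protein that protects membranes on freezing, had 140, 339 and 195 FPKM in S+HL and 22.9, 11.4 and 9.34 FPKM in S (log2 change 3.86, SE 0.41, adjusted p 4.2e-06). The dehydrin ERD10 had 270, 434 and 314 FPKM in S+HL and 92.0, 61.1 and 61.7 FPKM in S (2.23, SE 0.18, adjusted p 3.5e-07). DREB2A had 31.8, 46.8 and 48.4 FPKM in S+HL and 7.46, 4.68 and 9.61 FPKM in S, a log2 change of 2.42. The CBF genes themselves were low: CBF3, at 4.40, 4.96 and 2.74 FPKM in S+HL and 2.39, 0.819 and 0.275 FPKM in S, passed (1.31, adjusted p 0.037), CBF2 (0.79) did not, and CBF1 did not reach the level needed for testing.

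Several genes of compatible solute synthesis rose, and 1 gene of proline breakdown fell. P5CS1, the rate-limiting enzyme of proline synthesis, had 189, 239 and 168 FPKM in S+HL and 66.7, 65.1 and 61.6 FPKM in S (log2 change 1.6, SE 0.27, adjusted p 0.00047). ERD5, the mitochondrial proline dehydrogenase, had 43.7, 37 and 32.5 FPKM in S+HL and 78.5, 82.5 and 95.5 FPKM in S (-1.16, SE 0.18, adjusted p 0.00021). GOLS2, a galactinol synthase that starts the raffinose pathway, rose by 3.61, with 44.7, 87.3 and 64.2 FPKM in S+HL and 7.72, 4.57 and 1.96 FPKM in S. GOLS1 (1.73), GOLS4 (1.22) and the raffinose synthases RS5 (1.02) and RS2 (0.76) rose too, which makes 6 rises and 1 fall among 10 tested genes of this list.

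Among the 15 rises selected by size, those outside the lists included DIP2, annotated as an E3 ubiquitin ligase, with 73.3, 122 and 119 FPKM in S+HL and 3.52, 1.76 and 1.95 FPKM in S (log2 change 4.95, SE 0.36, adjusted p 1.2e-07). The lipid transfer proteins LTP3 and LTP4, a class of secreted proteins tied to the cuticle, rose by 4.25 and 4.11. The uncharacterized AT5G05220 rose by 4.11.

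Genes of the light harvesting antenna were lower, by modest amounts. Of 21 genes, 11 fell and 1 rose, with a median log2 change of -0.34. LHCB1.4, a major trimeric antenna protein of photosystem II, had 1430, 908 and 700 FPKM in S+HL and 1740, 2250 and 2490 FPKM in S (log2 change -1.14, SE 0.22, adjusted p 0.0015). LHCB1.1 had 1730, 1420 and 1380 FPKM in S+HL and 2690, 2910 and 3400 FPKM in S (-0.99, SE 0.13). The minor antenna proteins LHCB5 (-0.43) and LHCB4.2 (-0.38) fell less. For photosystem I, LHCA4 (-0.38) and LHCA5 (-0.33) fell and LHCA1 (-0.16), LHCA2 (-0.14) and LHCA3 (-0.066) did not pass. The single rise was the low-abundance LHCB7, with 31.9, 32.7 and 29.8 FPKM in S+HL and 19.4, 17.2 and 19.7 FPKM in S (0.72, SE 0.12, adjusted p 0.00026). The number called was 7 instead of 12 without S replicate 2, S replicate 3, S+HL replicate 2 or S+HL replicate 3.

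Chlorophyll synthesis followed the antenna in part. Of 12 tested genes 5 fell and none rose, with a median of -0.19. CHLM, the magnesium protoporphyrin methyltransferase, had 178, 167 and 180 FPKM in S+HL and 260, 294 and 311 FPKM in S (log2 change -0.72, SE 0.09, adjusted p 2.6e-05). The protochlorophyllide reductase PORB fell by 0.72 and the magnesium chelatase subunits CHLI1, CHLI2 and CHLD by 0.41, 0.44 and 0.33 on the log2 scale, while GUN4 (0.11), CHLH (0.061) and HEMA1 (0.11) did not pass. Leaving out S replicate 2, S replicate 3, S+HL replicate 2 or S+HL replicate 3 left 2 or 3 of these genes called. In the Calvin cycle 2 of 11 genes fell, RBCS1B (-0.59) and PRK (-0.34), and neither was called without S replicate 2 or without S+HL replicate 2. RBCS1A, a small subunit of Rubisco, had 10400, 10600 and 11100 FPKM in S+HL and 10800, 13400 and 13000 FPKM in S, which did not pass (-0.21, adjusted p 0.22).

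Several growth genes fell. GASA6, a gibberellin-regulated peptide that promotes cell elongation, had 24.5, 16.4 and 20.5 FPKM in S+HL and 82.3, 160 and 119 FPKM in S (log2 change -2.47, SE 0.35, adjusted p 6.6e-05). The expansin EXPA8, a cell wall loosening protein, had 23, 8.12 and 7.30 FPKM in S+HL and 34.8, 47.2 and 48.2 FPKM in S (-1.84, SE 0.31). HBI1, a bHLH factor that promotes cell elongation, had 23.8, 11.1 and 12.9 FPKM in S+HL and 43.6, 54.1 and 53.3 FPKM in S (-1.67, SE 0.28). Beyond these, the list of shade and growth genes moved little, with 3 falls among 17 tested, the third being SAUR15 (-1.22), and a median of -0.063. PIF4 (-0.063) and PIF5 (-0.13) did not pass. The dormancy and auxin associated AT2G33830, at 87.5, 29.6 and 27.6 FPKM in S+HL and 189, 200 and 245 FPKM in S, fell by 2.31, and the germin-like protein AT1G72610 fell by 2.03 on the log2 scale. MIR167d, the precursor gene of a microRNA that targets auxin response factors, was listed at 0.92, 0 and 0 FPKM in S+HL and at 12.7, 8.82 and 3.47 FPKM in S. In the mutant it had 2.09, 1.33 and 5.10 FPKM in S+HL and 8.10, 2.08 and 0 FPKM in S, with overlapping groups, and the difference between the genotypes did not pass the test (2.98, SE 0.94, adjusted p 1.0).

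Carbon starvation, clock and jasmonate genes gave few calls, where 6.76% of all tested genes rose and 5.18% fell. Counts this small describe single genes and not the lists. Of 14 starvation genes 2 fell, DIN10 (-1.40) and ETFQO (-0.57), with a median of -0.52. In the clock, PRR9, at 29.2, 28.2 and 31.9 FPKM in S+HL and 11.7, 14.8 and 12.3 FPKM in S, rose by 1.14, GI rose by 0.76 and LHY fell by 0.70 on the log2 scale, and the other 9 genes did not pass. Of 17 jasmonate genes the one that passed was JAZ6, a repressor (-0.63).

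Markers of other parts of the seedling did not separate the groups. None of 10 tested root markers passed, with a median of 0.053, and their summed level was 298 to 343 FPKM in S+HL and 237 to 372 FPKM in S, while PLT1 and PLT2, which define the root stem cell niche, were under 1 FPKM in all 6 libraries. None of the 4 guard cell markers passed, with sums of 16.5 to 20.0 FPKM in S+HL and 16.3 to 21.1 FPKM in S, and the 4 seed markers summed to 0.839 to 2.34 FPKM in S+HL and 1.96 to 2.28 FPKM in S. These are whole-seedling samples, in which fewer cells of a type and less RNA per cell cannot be told apart. Plastid-encoded transcripts made up 0.0603%, 0.0622% and 0.0408% of the summed FPKM in S+HL and 0.249%, 0.0399% and 0.261% in S, so S replicate 2 stood with the S+HL libraries, and none of the 62 that were tested passed.

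Single calls rested on the libraries to different degrees. Of 162 genes called among those selected for naming, 115 kept the call when each of the 6 libraries was left out in turn, and 47 lost it at least once. The strongest changes described above (ELIP1, MYB90, HSP17.6II, HSFA2, HAI1, NCED3, RD20, COR15A and GASA6) are among the 115. AT5G57150 lost its call without S+HL replicate 2, S+HL replicate 3 or S replicate 3 (highest adjusted p 0.096). APX2 and HSP21 kept theirs only without S+HL replicate 1, with highest adjusted p of 0.16 and 0.26. HY5 lost it without S replicate 2 or 3 (0.071), BIP2 without S replicate 2 or 3 or S+HL replicate 2 or 3 (0.14), and CBF3 without those of S or without S+HL replicate 1 or 2 (0.20). The other genes that lost a call included the receptors PYL5 (0.072) and PYL6 (0.12), CYP707A1 (0.18), GOLS1 (0.15), HSFB1 (0.13), CRY1 (0.22), LHCA5 (0.20), LHCB4.2 (0.17), CHLI1 (0.18), CHLI2 (0.20) and LHY (0.12), each given with its highest adjusted p. All 47 genes kept the direction of their change.

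The response was then set beside that of seedlings grown without salt, which asks where salt alters the reaction to light. HL against Control called 3672 genes (17.7%), and 1588 genes were called in both comparisons, which is 64.1% of those called on salt and 43.2% of those called without salt. Of these, 1579 changed in the same direction. Over all tested genes the log2 changes correlated at r = 0.647, a description across genes, which are not independent replicates. The difference of the responses, fitted as an interaction over the 4 groups, passed for 51 genes (0.246%). The log2 change on salt was above that without salt in 19 (0.0916%) and below it in 32 (0.154%). A change below can be a smaller rise or a larger fall, so this split does not rank the size of the responses.

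**Figure D4:**
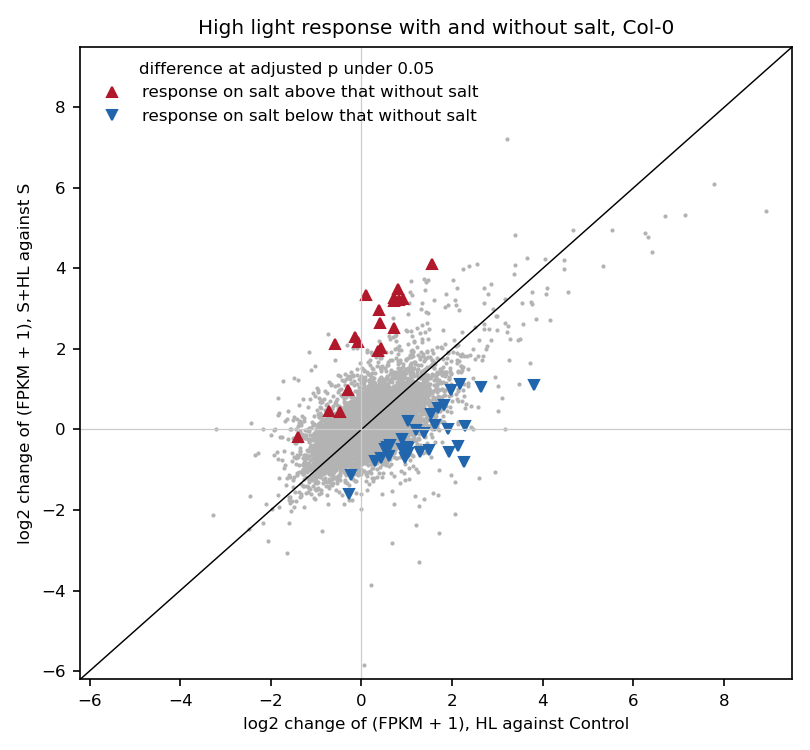
Each tested gene by its log2 change in high light on salt (y axis, S+HL against S) and without salt (x axis, HL against Control), with the line of equal response. Triangles mark the 51 genes whose responses differed, 19 above the line in red and 32 below it in blue.

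Most genes with a log2 change on salt above that without salt were genes that rose on salt: 17 of the 19 did, and 2 of the 19 were called higher without salt. Over all tested genes 6.76% rose on salt and 10% without salt. The change on salt enters the difference of responses, so the selection favours such rises, and these counts are descriptions only. AT1G62500, among the 19, did not pass on salt (-0.19) and fell without salt (-1.41). HAI3, the abscisic acid-induced phosphatase, had 4.2, 11.3 and 8.02 FPKM in S+HL and 0.470, 0.178 and 0.358 FPKM in S, and it had 0.599, 0.198 and 0.678 FPKM in HL and 0.166, 0.0312 and 0.120 FPKM in Control. The difference of the log2 changes was 2.23 (SE 0.41, adjusted p 0.033). SWEET4, a sugar transporter of the vasculature, had 5.16, 12.1 and 9.44 FPKM in S+HL and 0.693, 0.572 and 0.705 FPKM in S, and 0.963, 0.535 and 1.08 FPKM in HL and 0, 0.229 and 0.148 FPKM in Control (difference 1.79, SE 0.34, adjusted p 0.036). In both genes every S+HL library stood above every library of the other 3 groups, and SWEET4 also rose without salt (log2 change 0.72, adjusted p 0.044).

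The remaining genes of this direction that were selected by smallest p were CYP76C2, a cytochrome P450 (difference 2.46), AT2G41190, an amino acid transporter family protein (2.67), the uncharacterized AT2G35070 (2.25) and AT1G54130, the plastid RELA/SPOT homolog 3 (0.89). Of the abscisic acid list, NCED3 (2.31, adjusted p 0.042) and HAI2 (2.39, adjusted p 0.047) passed beside HAI3. The list as a whole rose in 22 genes on salt and in 14 without salt, with median log2 changes of 1.93 and 0.83, and the difference was positive in all but 4 of its 28 genes. The marker RD29B, with log2 changes of 3.15 on salt and 1.05 without, did not pass the test of the difference (2.09, adjusted p 0.19).

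Genes with a log2 change on salt below that without salt were mostly ones that high light raised in salt-free seedlings. Of the 32, 28 rose without salt, 5 rose and 9 fell on salt. Over all tested genes 10% rose without salt, and 6.76% rose and 5.18% fell on salt. The change without salt is subtracted in the difference of responses, so the selection favours rises without salt, and these counts are descriptions only. Over all 51 genes, 6 were called in opposite directions in the 2 conditions. In 30 of the 32 the mean of S was above that of Control. S and Control both enter the difference of responses, so the selection favours such a count, which is a description only. ARR4, a type-A response regulator of cytokinin signalling, had 72.9, 68.9 and 74.3 FPKM in S+HL and 101, 95.3 and 86.7 FPKM in S, and 81.0, 81.2 and 73.4 FPKM in HL and 50.0, 50.9 and 51.0 FPKM in Control (difference -1.0, SE 0.16, adjusted p 0.018). ARR4 fell on salt by 0.38 on the log2 scale and rose without salt by 0.62. BOR1, the boron exporter of the root, had 12.9, 12.6 and 11.4 FPKM in S+HL and 17, 16 and 17 FPKM in S, and 16.7, 19.6 and 23 FPKM in HL and 11, 13.8 and 14.3 FPKM in Control (difference -1.0, SE 0.16). The defensin-like AT5G33355 had 28, 31.1 and 40.7 FPKM in S+HL and 44.9, 58.3 and 43.8 FPKM in S, and 4.45, 2.37 and 5.78 FPKM in HL and 0.293, 0.309 and 0.353 FPKM in Control. All S libraries stood above all HL libraries, and the difference was -2.47 (SE 0.39, adjusted p 0.018).

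PATL2, a patellin, of a family of lipid transfer-like proteins (-0.90), the arabinogalactan protein FLA13 (-1.08) and the defensin-like AT3G59930 (-2.0) completed the selection. PATL2 and FLA13 fell on salt, with log2 changes of -1.13 and -0.78, and did not pass without salt (-0.23 and 0.30). In the endoplasmic reticulum list the difference was negative for 14 of 15 genes, against 10717 of all 20744 genes. It passed for CNX1, calnexin (-1.13, adjusted p 0.036), BIP2 (-1.22, adjusted p 0.039) and CRT1B, calreticulin (-0.81, adjusted p 0.039). CNX1 had 117, 131 and 179 FPKM in S+HL and 114, 100 and 106 FPKM in S, with a log2 change of 0.39 on salt and 1.52 without. Of 17 jasmonate genes 9 rose without salt and none on salt, and of 10 root markers 6 and none. Over all tested genes 10% rose without salt and 6.76% on salt. No single difference passed the threshold in either list. Each count comes from its own comparison, so the contrast of counts is not itself a test of the difference. The root markers summed to 183 to 295 FPKM in HL and 90.6 to 116 FPKM in Control, below those in S+HL and S respectively. Guard cell markers summed to 31.3 to 43.4 FPKM in HL and 40.9 to 43.5 FPKM in Control, above the sums on salt. The 4 seed markers summed to 0.304, 1.22 and 79.7 FPKM in Control, so replicate 3 stood apart. Replicate 3 of HL did so too, with seed list means on the log2(FPKM + 1) scale of 0.43, 0.22 and 2.42 in HL. The part of these marker lists in the differences of response was not tested.

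**Figure D5:**
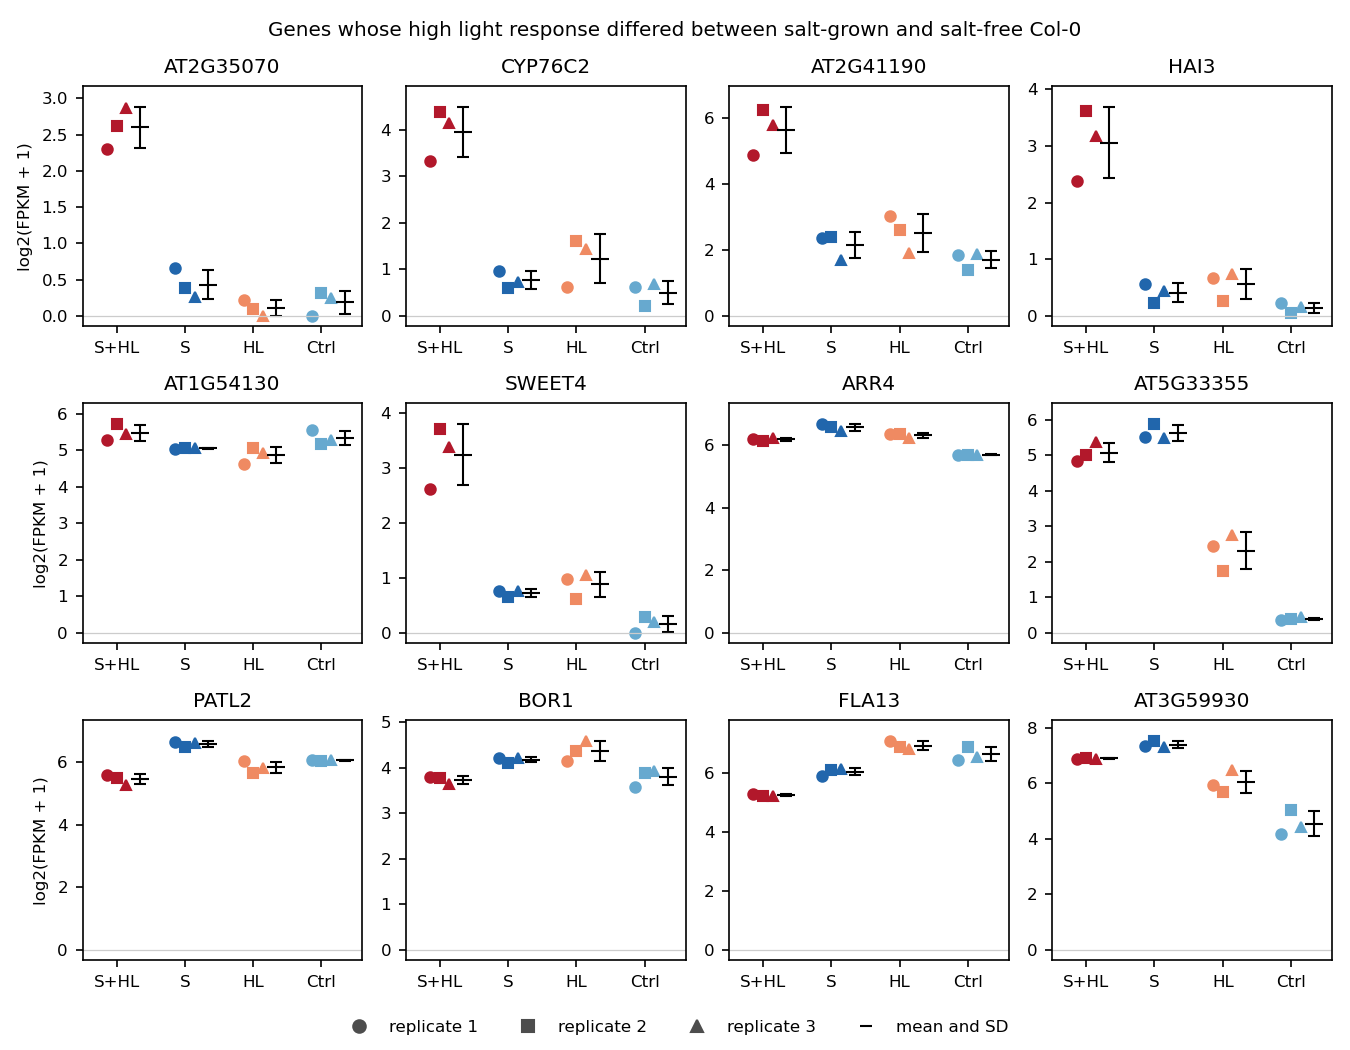
Levels of the 12 selected genes whose responses differed (y axis, log2(FPKM + 1)), in S+HL, S, HL and Control from left to right, with mean and SD beside the points. HAI3, SWEET4 and CYP76C2 are highest in S+HL, while ARR4 and BOR1 are lower in S+HL than in S and higher in HL than in Control.

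The number of genes with a difference depended on single libraries: none was left without S+HL replicate 2, without S replicate 2 or without Control replicate 1, while 1326, 1367 and 1379 genes had an unadjusted p under 0.05 there, against 1645 with all libraries. It was 5 without S replicate 1, 8 without HL replicate 3 or Control replicate 3, 21 without HL replicate 2, and 25 without HL replicate 1 or S+HL replicate 3. The same difference of responses was therefore computed in the mutant libraries, a step added after the data were seen. All 51 genes were tested there, and 49 had a difference in the same direction, against 64.5% of the 20385 genes tested in both genotypes. The mutant fit called 23 genes (0.111%), of which 3 were among the 51, and 42 of the 51 had an unadjusted p under 0.05 in the same direction. Over all 20675 genes of the mutant fit, 1763 (8.53%) had an unadjusted p under 0.05 in either direction.

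The response on salt was also set beside that of the bHLH35 mutant, where 2383 genes were called (11.5%). Of 2468 Col-0 calls tested in both, 2447 (99.1%) had the same direction in the mutant, and 1545 were called there too. List medians in the mutant were 3.40 for heat shock, 1.52 for abscisic acid, 1.0 for flavonoids and -0.29 for the antenna. Among plastid-encoded transcripts, 26 of 62 were called higher in the mutant (median 1.32), where 5.97% of all genes were, and none of 62 was called in Col-0. Their share of the summed FPKM ran from 0.0399% to 0.261% in the Col-0 S libraries. No plastid-encoded transcript passed the test between the genotypes given next. The difference between the genotypes in this response, mutant minus Col-0, passed for 0 of 21359 genes with limma (0.0%), with 437 genes at an unadjusted p under 0.05 (2.05%), and for 1 gene without S+HL replicate 2 of Col-0. A difference that misses the threshold does not show that the genotypes respond alike.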

How the data were processed

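Whole 7-day-old seedlings were measured by RNA-seq in 48 libraries, 24 of Col-0 and 24 of the bHLH35 mutant. The values are FPKM per gene, as deposited by the authors in one table per genotype. Trim Galore 0.6.4 and FastQC 0.11.9 are named per the labels' design text, and HISAT2 2.2.1 and the TAIR10 build per the submitters' processing notes. The tool that made the FPKM values, its annotation and its strand setting are not given in the sources used here. Of 32824 identifiers, 32539 were found in the RefSeq TAIR10.1 annotation, which supplied names and promoters, and 2 repeated lines were summed.

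Depth was estimated from the steps between low FPKM values of 12877 genes with at least 800 spliced bases. Within a tolerance of 0.1 fragments, 92.4% to 94.3% of the low values of the 6 libraries were whole. A count of 3 fragments on 1 kb corresponds to 0.0682 to 0.1538 FPKM over the 18 libraries used for the comparisons, which covers counting error only.

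A gene entered a fit if 3 or more of its libraries reached 1 FPKM, and was tested with limma 3.58.1 (R 4.3.3) on log2(FPKM + 1), with a trended prior, 8 treatment groups in each table's fit of 24 libraries, and Benjamini-Hochberg adjustment over all genes (threshold 0.05, two-sided). The interaction was (S+HL minus S) minus (HL minus Control), and the genotype difference was fitted over all 48 libraries. On simulated data for S+HL against S with 20214 genes and 200 changed, 84% of changes of log2 size 1 and 32% of size 0.5 were recovered, and 7 of 154 calls were false. The changed genes were drawn from those of higher level in S, and the simulated noise was independent between libraries. These rates hold for that setting only. Tables and figures were made with Python 3.11.15, pandas 2.3.3 and matplotlib 3.10.9.

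The members and gene lists were chosen with earlier results of these data known. Genes were named if they were AT5G57150 or in a list, among the 15 largest called changes in each direction (mean of at least 5 FPKM in the higher group, no overlap between groups), or among the 6 called genes of smallest adjusted p in each direction of the interaction. Alternatives were the pseudocount, the filter, the scaling, the trend, the replicate block, the samples in the fit, a fold threshold and leaving out each library.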

Additional observations from a re-analysis of the deposited data

Results flagged for a closer look

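The response to high light differed between salt-grown and salt-free Col-0 seedlings in 51 of 20744 genes, by the interaction test in limma. Log2 changes on salt above those without salt were found for AT2G41190 (difference 2.67, adjusted p 0.024), CYP76C2 (2.46, adjusted p 0.018), AT2G35070 (2.25, adjusted p 0.018), HAI3 (2.23, adjusted p 0.033), SWEET4 (1.79, adjusted p 0.036) and AT1G54130 (0.89, adjusted p 0.036). AT1G54130 rose on salt (0.42) and fell without salt (-0.47). Log2 changes on salt below those without salt were found for the defensin-like genes AT5G33355 (difference -2.47, adjusted p 0.018) and AT3G59930 (-2.0, adjusted p 0.024), and for FLA13 (-1.08, adjusted p 0.019), ARR4 (-1.0, adjusted p 0.018), BOR1 (-1.0, adjusted p 0.018) and PATL2 (-0.90, adjusted p 0.018). PATL2 and FLA13 fell on salt (-1.13 and -0.78) and did not pass without salt (-0.23 and 0.30). AT2G35070 stood at 3.95, 5.14 and 6.33 FPKM in S+HL and 0.572, 0.303 and 0.191 FPKM in S, and at no more than 0.237 FPKM in the HL and Control libraries. FLA13, an arabinogalactan protein of the cell wall, stood at 38.5, 36.5 and 36.7 FPKM in S+HL and 58.6, 67.2 and 68.9 FPKM in S, and at 135, 117 and 111 FPKM in HL and 86.1, 118 and 93.2 FPKM in Control. In the mutant libraries 49 of the 51 differences had the same direction, against 64.5% of the genes tested in both genotypes.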

How the results depend on the processing

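The 2477 calls for S+HL against S became 673 with a log2 change of at least 1, and 1310 to 2567 on leaving out each library in turn. HL against Control gave 1603 calls with only the contrasted groups in the fit and 899 with the log2 threshold. The 51 differences of response became 31 with a pseudocount of 0.1, 22 with no filter, 28 with no trend, 10 with only the contrasted groups, 0 to 59 on leaving out a library, and 23 in the mutant table, a check added after the data were seen. S+HL against S in the mutant gave 680 calls with the log2 threshold and 1404 to 2173 on leaving out a library, and the genotype difference gave 1 call with no filter and 0 to 1 on leaving out a library. The median of the clock list changed sign between -0.0649 (without S+HL replicate 1) and 0.0599 (without S+HL replicate 2), and was -0.0033 without S replicate 2. The cause of these changes was not tested. The replicate number did not pair S+HL with S libraries over all tested genes (correlations of deviations 0.005 to 0.041 for the same number, -0.083 to 0.069 for different numbers). Pairing between the high light groups was not tested. With the replicate number as a block, S+HL against S gave 2288 calls, 2249 of them among the 2477, and the interaction gave 16. Of results for named genes in S+HL against S, 4174 kept direction and side of the threshold, 215 lost the call and 47 gained it. Median-of-ratios scaling left 2468 calls, 60.5% of them higher. The seed list gave no value with a mean of at least 5 FPKM or with only the contrasted groups.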

Other observations

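Product families were looked through after their values were seen, over 256 families with at least 8 tested members, so their counts are descriptions. The SAUR-like and HSP20-like families hold some members of the lists above, among them SAUR15 and AT1G53540. Late embryogenesis abundant proteins, which protect cells in drying tissue, had 4 of 8 members higher and none lower, against 6.76% higher over all genes, and their levels were high. LEA7 had 178, 571 and 526 FPKM in S+HL and 36.3, 19.8 and 29.4 FPKM in S (limma log2 change 3.72, SE 0.50, adjusted p 4.2e-05). AT3G02480 had 234, 851 and 724 FPKM in S+HL and 87.7, 54.5 and 66.4 FPKM in S, a log2 change of 2.92. TCP transcription factors, regulators of leaf growth and cell division, had 4 of 8 members lower and none higher, led by TCP11, with 13.6, 15.2 and 10.6 FPKM in S+HL and 26.4, 33.0 and 30.4 FPKM in S (-1.13, adjusted p 0.00028). Of 61 SAUR-like auxin-responsive genes, 12 were lower and 2 higher, with 5.18% lower over all genes. AT4G38860 had 28.5, 15.9 and 18.3 FPKM in S+HL and 45.4, 45.8 and 59.7 FPKM in S (-1.26). Of 28 NPH3 family genes, which act in phototropism, 6 were lower and none higher, including RPT2 (-0.42) and ENP (-0.62). One HSP20-like gene went against its family: AT4G21870 had 8.52, 9.01 and 8.51 FPKM in S+HL and 22.9, 32.3 and 31.3 FPKM in S (-1.61, adjusted p 6.3e-06), while 11 of 27 members rose.

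Among the 51 genes with a difference of response, some outside the naming rule were picked after their values were seen. The vacuolar aquaporins GAMMA-TIP and TIP2;2 rose on salt and without salt, but less on salt. GAMMA-TIP had 1230, 1480 and 1470 FPKM in S+HL and 784, 707 and 638 FPKM in S, and 1100, 1370 and 1720 FPKM in HL and 329, 354 and 366 FPKM in Control (difference -1.0, adjusted p 0.036). The levels in S+HL and HL overlapped, and those in S and Control did not. TIP2;2 had a difference of -1.04. PAP17, a phosphatase known from phosphate starvation, had 64.0, 81.2 and 71.9 FPKM in S+HL and 38.5, 27.1 and 37.9 FPKM in S, and 79.5, 76.3 and 60.3 FPKM in HL and 7.02, 14.4 and 11.7 FPKM in Control (difference -1.58, adjusted p 0.039). COR413IM1, a cold-regulated inner envelope protein of the chloroplast, had a difference of 2.42 (adjusted p 0.039), with 19.9, 34.8 and 20.3 FPKM in S+HL and 6.33, 3.64 and 3.02 FPKM in S.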
